A study of Homo sapiens with 12 samples.

Results

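EBI3 and its relatives of the IL-12 and IL-6 cytokine families were followed in HL-60/S4 cells given TNF-α. The 10 genes, EBI3, IL27, IL12A, IL12B, IL23A, IL6, IL6R, IL6ST, LIF and OSM, are 10 of the 58288 gene identifiers in the count table, matched by Ensembl identifier. They were chosen by name with their levels and TNF-α responses in these libraries already known, so the values of these 10 genes are descriptions and no p-value is given for them. HL-60/S4 is a human promyelocytic leukaemia line that forms granulocyte-like cells with all-trans retinoic acid (ATRA). The 12 libraries, of total RNA depleted of ribosomal RNA, formed 4 groups of 3, with vehicle-treated and TNF-α-treated promyelocytes and vehicle-treated and TNF-α-treated granulocytes. Promyelocytes were undifferentiated cells, and granulocytes had received 1 µM ATRA for 4 days. Treatment lasted 2 h with 16 ng/mL TNF-α or with the same volume of water as vehicle, in medium to which calcium had been added for every group. All libraries came from 1 cell line grown from a single seed lot, each from a flask of its own. The promyelocyte and granulocyte experiments were carried out apart from each other, so cell type and experiment cannot be told apart, and levels are set side by side across cell types with no test.

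The IL-12 family cytokines are heterodimers with shared chains. IL12B pairs with IL12A to make IL-12 and with IL23A to make IL-23, while EBI3 pairs with IL27 to make IL-27 and with IL12A to make IL-35. A chain that lacks its partner does not make the named cytokine, so the level of both chains matters. IL-6, LIF and OSM signal through receptor complexes that share IL6ST (gp130), IL6R is the IL-6 binding chain, and IL6ST also serves the IL-27 receptor together with IL27RA. These receptors act through JAK kinases and STAT factors, and neutrophils and their precursors are among the cells that respond to such cytokines.

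Library totals lay between 22829189 and 31895061 read pairs assigned to genes, and the floor of 3 counts in a library stood at 0.0953 to 0.135 CPM (CPM, counts scaled to effective library sizes). The summed level of 5 azurophil granule markers was 7360 to 7970 CPM in vehicle and 6130 to 7020 CPM in TNF-α promyelocytes, and 2130 to 2360 CPM in granulocytes, where the groups overlapped. That of 7 granulocyte surface and oxidase markers was 276 to 288 CPM in vehicle and 417 to 442 CPM in TNF-α promyelocytes, and 3940 to 4140 CPM and 4550 to 4820 CPM in granulocytes. The sums of both lists in promyelocytes and of the latter in granulocytes differed with TNF-α without overlap. Their part in the results was not tested. Members of the latter list moved in opposite directions. In granulocytes NCF1 stood at 1170 to 1310 CPM with vehicle and 1810 to 2060 CPM with TNF-α, and FCAR and FPR1 were higher too. ITGAM, at 288 to 305 and 240 to 259 CPM, NCF4 and CSF3R were lower there, and CYBB overlapped. In promyelocytes CYBB, NCF1 and FCAR were higher and CSF3R was lower, while the others overlapped. Of 7 monocyte or macrophage markers, MARCO was at 0 in all libraries, and the list summed to 49.5 to 51.4 CPM in vehicle and 30.2 to 33.9 CPM in TNF-α granulocytes. Nearly all of that sum was CSF1R, at 49.3 to 51.1 CPM in vehicle and 29.7 to 33.2 CPM in TNF-α granulocytes. Of 5 dendritic cell markers, CLEC9A was at 0 in all libraries, and the list summed to at most 0.505 CPM in promyelocytes, 8.03 to 10.2 CPM in vehicle and 9.75 to 10.2 CPM in TNF-α granulocytes. LAMP3 of that list, singled out after its values were seen, had 0 to 1 counts in vehicle and 68 to 98 counts in TNF-α granulocytes. CD1C went the other way without overlap, with 236 to 303 counts in vehicle and 148 to 178 counts in TNF-α granulocytes. CD207 and FCER1A had at most 2 counts in any library. The part of these genes in the results was not tested. The B cell marker MS4A1, the T cell marker CD8A and the erythroid genes HBB, HBA1 and ALAS2 had 0 counts throughout.

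The upstream sequences of EBI3 and IL23A are shown because both held a match to the NF-κB consensus and a match to the AP-1 letters TGANTCA, the recognition sequences of factor families that act downstream of the TNF receptors. Each run covers bases 220 to 31 before the RefSeq start, 5′ to 3′, with the matches in capitals, NF-κB first. The EBI3 window is chr19:4229303-4229492 and the IL23A window chr12:56338664-56338853, both on the plus strand of GRCh38.p14. The EBI3 window lies before the annotated gene, and the IL23A window lies inside the annotated IL23A gene but in no exon.
EBI3: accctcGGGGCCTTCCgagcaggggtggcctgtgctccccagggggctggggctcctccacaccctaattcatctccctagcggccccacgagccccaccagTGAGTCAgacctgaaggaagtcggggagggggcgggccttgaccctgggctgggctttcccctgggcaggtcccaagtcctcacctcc
IL23A: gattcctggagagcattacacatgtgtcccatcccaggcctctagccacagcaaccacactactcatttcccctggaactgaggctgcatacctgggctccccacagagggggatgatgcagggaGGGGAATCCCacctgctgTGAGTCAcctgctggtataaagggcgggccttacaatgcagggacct
In EBI3 the matches stood 214 to 205 and 118 to 112 bases before the start, and in IL23A 95 to 86 and 77 to 71 bases before it. Promoters of 7 of the 10 genes were matched in the RefSeq table, and IL27, LIF and OSM had no entry. Over 250 bases before the start and both strands, the NF-κB consensus was found in 5 of the 7 (EBI3, IL12A, IL23A, IL6 and IL6ST), against 9.96% of 35116 promoters. The AP-1 letters, which read the same on both strands, were found in EBI3 and IL23A, against 6.57% of promoters. The C/EBP letters TTGCNNAA were found in IL6 alone of the 7, against 9.05% of promoters. Of bases 220 to 31 before the start, 55 in IL12A, 23 in IL6 and 120 in IL6R lie in exons of the GENCODE 27 annotation used for counting. These windows are thus not wholly upstream sequence. In IL12B all 190 bases lie in exons, so its lack of a match says nothing about sequence before its annotated gene. A match is a run of letters and not a measured binding site.

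**Figure D1:**
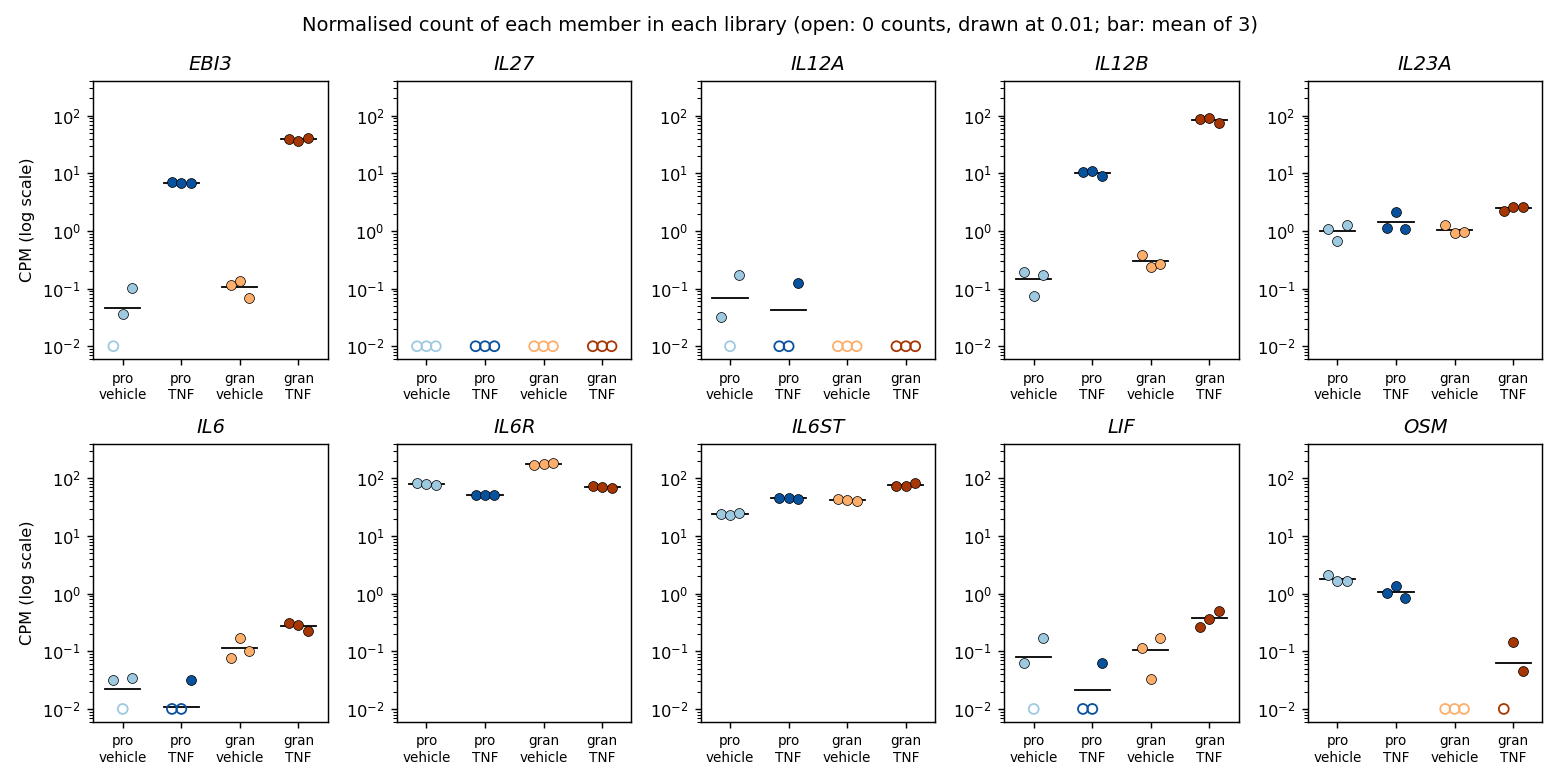
Normalised count (CPM, log axis) of each of the 10 genes in each of the 12 libraries, 3 points for each group (pro, promyelocytes; gran, granulocytes), with a bar at the mean and open points for libraries with 0 counts. EBI3 and IL12B stand above vehicle in every TNF-α library, IL6R stands below it, and IL27 is at 0 throughout.

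EBI3 was close to absent without TNF-α and abundant 2 h after it in both cell types. EBI3 (ENSG00000105246.5, chr19:4229498-4237531, plus strand, 5 exons) encodes the chain shared by IL-27 and IL-35. In promyelocytes it had 0, 1 and 3 counts in the vehicle libraries and 188, 186 and 217 counts in the TNF-α libraries. In granulocytes it had 3, 4 and 2 counts with vehicle and 871, 1038 and 924 counts with TNF-α. The lowest TNF-α library thus held many times the counts of the highest vehicle library in each cell type, and the groups did not overlap. The ratio of summed CPM was 151 in promyelocytes, with a 95% interval of 58.7 to 556, and 372 in granulocytes, with an interval of 195 to 813. These intervals cover counting error only and are wide because the vehicle counts were 4 and 9 in all. The fitted log2 fold changes were 7.11 (SE 0.344) and 8.48 (SE 0.167), and with so few vehicle counts they depend on the prior count of the fit. These SEs were derived from the fold change and its F statistic, and they are too small where vehicle counts are few. The intervals for counting error alone are wider, so these SEs are not limits of error. One library set the promyelocyte value: without vehicle replicate 3, which held 3 of the 4 vehicle counts, it was 8.34. In bulk RNA, fewer cells with a transcript and less RNA in each cell cannot be told apart, so these values do not say how many cells carried EBI3.

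Its mean level was 6.92 CPM (SD 0.219, n = 3) in TNF-α promyelocytes and 39.2 CPM (SD 2.32, n = 3) in TNF-α granulocytes. The order of the groups was TNF-α granulocytes, TNF-α promyelocytes, vehicle granulocytes and vehicle promyelocytes. The TNF-α groups stood apart from each other and from both vehicle groups, while the vehicle groups overlapped. The log2 fold change in granulocytes exceeded that in promyelocytes by 1.42 with an SE of 0.921, in a joint fit of all 12 libraries.

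IL27, the partner chain of EBI3 in IL-27 (chr16:28499362-28512051, minus strand), had 0 counts in each of the 12 libraries. A count of 0 in a library allows up to 3 counts. With IL27 set at that floor in every library, EBI3 was at least 65.0-fold more abundant than IL27 per exon base in TNF-α promyelocytes and at least 311-fold in TNF-α granulocytes. EBI3 transcript was therefore measured without a detectable IL27 transcript at this depth.

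IL12A, the partner of EBI3 in IL-35 and of IL12B in IL-12 (chr3:159988750-159996019, plus strand), was near the floor as well. It had 1, 0 and 5 counts in vehicle and 0, 0 and 4 counts in TNF-α promyelocytes, and the groups overlapped. All 6 granulocyte libraries had 0 counts. Set at the floor of 3 counts in each TNF-α granulocyte library, IL12A was exceeded per exon base at least 500-fold by EBI3 and at least 507-fold by IL12B. IL12A-AS1 overlaps IL12A on the opposite strand and was counted apart from it, since counting used the strand.

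IL12B, the chain shared by IL-12 and IL-23 (ENSG00000113302.4, chr5:159314783-159330887, minus strand, 8 exons), moved much as EBI3 did. It had 6, 2 and 5 counts in vehicle and 275, 306 and 283 counts in TNF-α promyelocytes. In granulocytes the vehicle libraries had 10, 7 and 8 counts and the TNF-α libraries 1941, 2552 and 1680 counts. The groups were far apart in both cell types. The ratio of summed CPM was 67.9 (95% interval 39.5 to 128) in promyelocytes and 291 (197 to 451) in granulocytes. The fitted log2 fold changes were 6.05 (SE 0.244) and 8.16 (SE 0.130), a difference of 2.15 (SE 0.562) in the joint fit. As for EBI3, the SEs of the fold changes within each cell type are too small, because vehicle counts were few. The groups of IL12B stood in the same order as those of EBI3, and here no neighbouring groups overlapped.

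IL23A, the partner of IL12B in IL-23 (ENSG00000110944.8, chr12:56334174-56340410, plus strand, 6 exons), was present in every group and differed far less with TNF-α. Its counts were 34, 18 and 37 in vehicle and 30, 59 and 34 in TNF-α promyelocytes, and these groups overlapped. In granulocytes they were 33, 28 and 29 with vehicle and 49, 74 and 58 with TNF-α, with no overlap. The ratio was 1.41 (95% interval 1.07 to 1.88) in promyelocytes, where only replicate 2 of the TNF-α libraries lay above the vehicle range, and 2.37 (1.83 to 3.09) in granulocytes. The log2 fold changes were 0.51 (SE 0.323) and 1.24 (SE 0.243). Per exon length, each of the 4 groups in order of level overlapped with its neighbour, while in CPM the TNF-α granulocytes, at 2.19 to 2.64, lay above the TNF-α promyelocytes, at 1.08 to 2.13.

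Levels of different genes were compared per exon length as TPM, computed from the counts and the deposited gene lengths. EBI3 had 15.9 TPM (SD 1.36, n = 3) in TNF-α promyelocytes and 84.8 TPM (SD 8.91) in TNF-α granulocytes, and IL12B had 10.9 TPM (SD 1.27) and 84.6 TPM (SD 4.44). The ratio of EBI3 to IL12B within a library was 1.31 to 1.65 in TNF-α promyelocytes and 0.875 to 1.18 in TNF-α granulocytes, so the 2 chains were at like levels in the latter. IL23A had 3.58 TPM (SD 1.32) and 5.81 TPM (SD 0.758). The balance of the IL-23 chains thus turned over with TNF-α. The ratio of IL12B to IL23A was 0.0478 to 0.0759 in vehicle and 2.23 to 3.94 in TNF-α promyelocytes. In granulocytes it was 0.107 to 0.130 in vehicle and 12.5 to 17 with TNF-α.

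**Figure D2:**
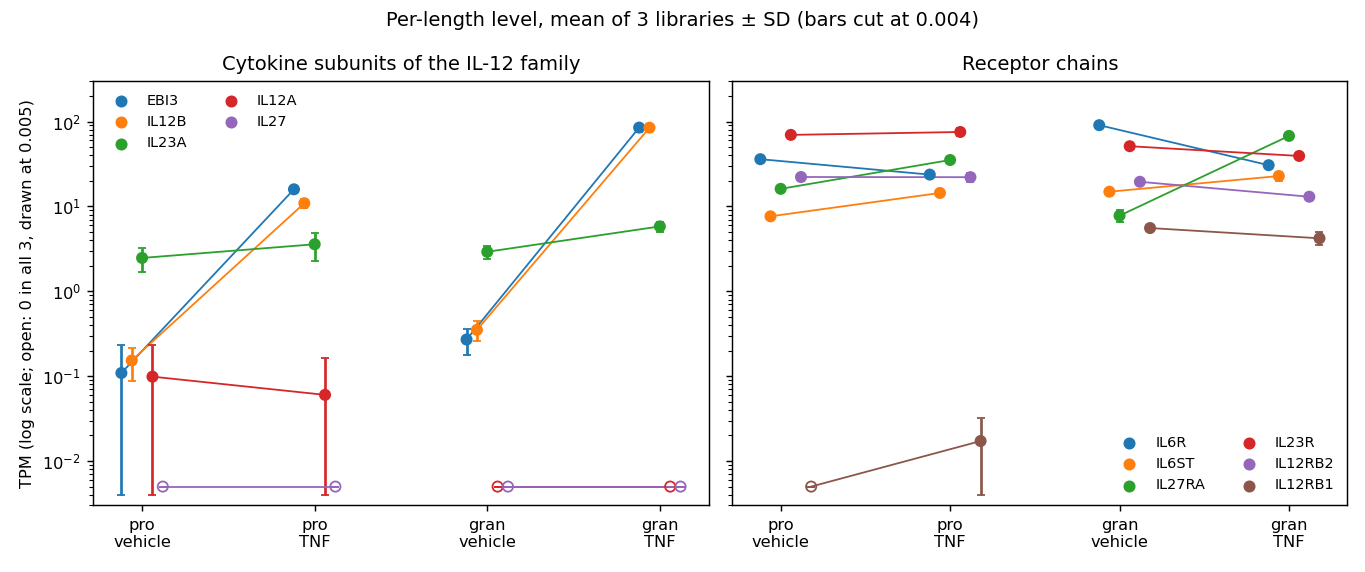
Per-length level (TPM, log axis) of 5 IL-12 family subunits (left) and 6 receptor chains (right) in the 4 groups, as means of 3 libraries with SD bars that are cut at the foot of the axis and lines joining vehicle to TNF-α within a cell type. EBI3 and IL12B start below IL23A and end above it in both cell types, while IL27 lies at 0 in every group and IL12A at 0 in granulocytes.

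The IL-6 type ligands IL6, LIF and OSM were scarce in all groups. IL6 (chr7:22725884-22732002, plus strand), a cytokine of fever and the acute phase, had at most 1 count in any promyelocyte library. It had 2, 5 and 3 counts in vehicle and 7, 8 and 5 counts in TNF-α granulocytes, and the ratio of summed CPM was 2.36 with an interval of 1.05 to 5.65. LIF (chr22:30240447-30246851, minus strand), first known for inducing differentiation of myeloid leukaemia cells, had 2, 0 and 5 counts in vehicle and 0, 0 and 2 counts in TNF-α promyelocytes. In granulocytes LIF had 3, 1 and 5 counts with vehicle and 6, 10 and 11 counts with TNF-α, a ratio of 3.54 with an interval of 1.62 to 8.56. In CPM the granulocyte groups did not overlap for IL6 or LIF, but neither gene passed the filter on low counts and no model was fitted. The mean levels of IL6 and LIF in TNF-α granulocytes were 0.275 and 0.374 CPM, at most a few times the floor.

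OSM (ENSG00000099985.3, chr22:30262829-30266840, minus strand), the gene of oncostatin M and a close neighbour of LIF on the chromosome, had the opposite pattern across cell types. It had 65, 45 and 47 counts in vehicle and 27, 38 and 27 counts in TNF-α promyelocytes. The groups did not overlap, with every TNF-α library below every vehicle library. The ratio was 0.599 (95% interval 0.458 to 0.780) and the log2 fold change -0.73 (SE 0.261), which was not called at the threshold over all genes. In granulocytes the vehicle libraries had 0 counts and the TNF-α libraries 0, 4 and 1, so no fold was computed.

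IL6R and IL6ST, the receptor chains, were the most abundant of the 10 genes without TNF-α, and they moved in opposite directions. IL6R (ENSG00000160712.12, chr1:154405193-154469450, plus strand, 12 exons) had 2598, 2172 and 2223 counts in vehicle and 1361, 1428 and 1623 counts in TNF-α promyelocytes. In granulocytes it had 4468, 5376 and 5505 counts with vehicle and 1648, 2000 and 1524 counts with TNF-α. TNF-α libraries were lower than vehicle libraries in both cell types with no overlap. The mean level was 79.9 CPM (SD 2.97, n = 3) in vehicle and 51.6 CPM (SD 0.120) in TNF-α promyelocytes, and 179 CPM (SD 6.84) and 71.3 CPM (SD 2.46) in granulocytes. The ratio was 0.645 (95% interval 0.621 to 0.670) in promyelocytes and 0.398 (0.385 to 0.411) in granulocytes. The log2 fold changes were -0.63 (SE 0.0590) and -1.33 (SE 0.0512), and their difference in the joint fit was -0.66 (SE 0.0772). These counts cover the gene as a whole and do not separate membrane-bound from soluble IL6R transcripts.

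IL6ST (ENSG00000134352.19, chr5:55935095-55994993, minus strand, 19 exons) was higher with TNF-α by nearly the same factor in both cell types. It had 765, 640 and 731 counts in vehicle and 1210, 1253 and 1390 counts in TNF-α promyelocytes. In granulocytes the counts were 1127, 1287 and 1200 with vehicle and 1625, 2056 and 1831 with TNF-α. The groups did not overlap in either cell type. The ratio was 1.84 (95% interval 1.75 to 1.95) and 1.80 (1.73 to 1.88), and the log2 fold changes were 0.89 (SE 0.0672) and 0.85 (SE 0.0583), which differed by 0.00 (SE 0.0891) in the joint fit. Per exon length, the ratio of IL6R to IL6ST within a library was 4.38 to 4.89 in vehicle and 1.62 to 1.68 in TNF-α promyelocytes. In granulocytes it was 5.71 to 6.61 with vehicle and 1.20 to 1.46 with TNF-α. IL6R was thus in excess of IL6ST in every library, and the excess was smaller with TNF-α.

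**Figure D3:**
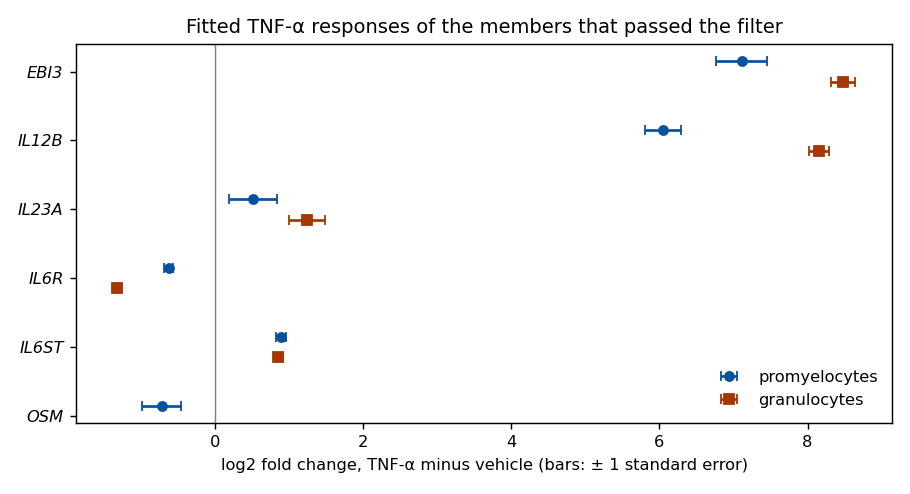
Fitted log2 fold change (TNF-α minus vehicle, edgeR) with bars of 1 standard error for the 6 genes that passed the filter in promyelocytes (circles) and the 5 that passed in granulocytes (squares). EBI3 and IL12B lie above 6 in both cell types, IL6R lies below 0 and IL6ST lies near 0.9 in both. The bars of EBI3 and IL12B are too short, because their vehicle counts were few.

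Of the 10 genes, 6 passed the filter on low counts in promyelocytes, where 3 were called higher and 1 lower. Among all 16250 genes tested there, 8.15% were called higher and 6.65% lower. In granulocytes 5 passed, with 4 called higher and 1 lower, while 24.4% of all 16944 tested genes were called higher and 24.8% lower. The vehicle and TNF-α groups did not overlap for 5 of the 6 and for 5 of the 5, against 31.1% and 55.2% of all tested genes. EBI3 and IL12B passed the filter through their TNF-α libraries, and the 10 genes were selected on these same values, so nothing is read from these counts.

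The genes whose log2 CPM followed EBI3 most closely over the 12 libraries were BCL3, NFKBIE, MUC1, IL12B and IER3. BCL3 and NFKBIE are members of the IκB family of NF-κB regulators, MUC1 is a membrane mucin and IER3 an immediate early response gene. Pearson r was 0.992 for BCL3, NFKBIE, MUC1 and IL12B and 0.991 for IER3. IL12B ranked 4 of 18123 genes. The 12 points share 4 groups and 2 separate experiments, so r mainly describes the group means. The steps differed in size: BCL3 had 125, 100 and 110 counts in vehicle and 1095, 1123 and 1558 counts in TNF-α promyelocytes, while MUC1 had 6, 6 and 9 and then 43, 33 and 40 counts.

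**Figure D4:**
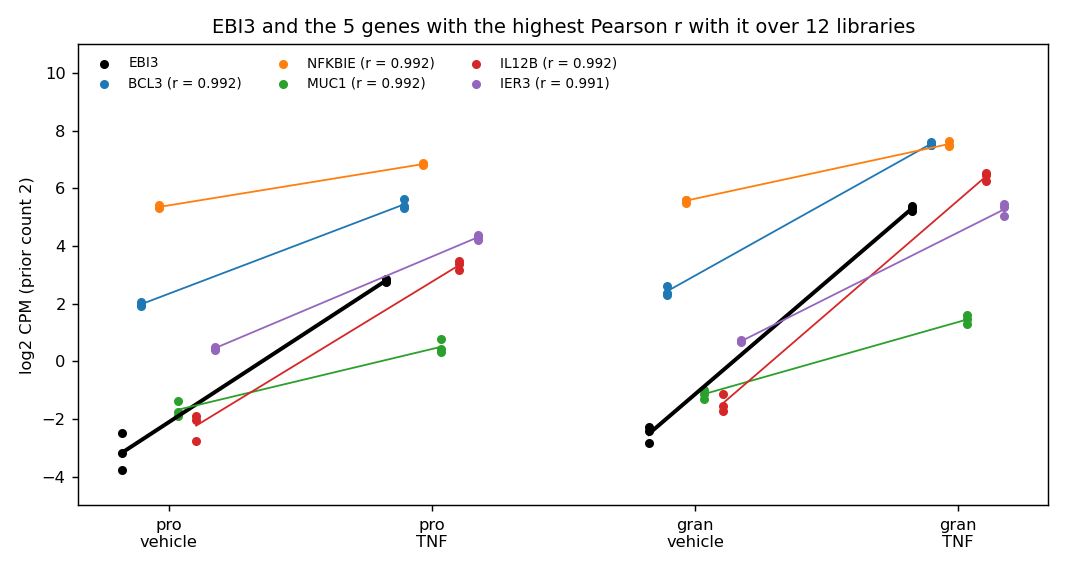
Log2 CPM (prior count 2) of EBI3 and of the 5 genes with the highest Pearson r with it, 3 libraries for each of the 4 groups, with lines joining the group means within a cell type. All 6 genes are higher with TNF-α in both cell types and highest in TNF-α granulocytes.

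The other genes of these pathways were read from 8 lists holding 59 genes, with edgeR's quasi-likelihood test and Benjamini-Hochberg adjustment over all genes tested. In promyelocytes 49 of the 59 were tested, 20 increased, 4 decreased and 25 were not called. Their median log2 fold change was 0.25, against -0.01 over all tested genes. In granulocytes 53 were tested, 28 increased, 10 decreased and 15 were not called, with a median of 0.22 against 0.00. The shares over all tested genes given above, 8.15% higher and 6.65% lower in promyelocytes and 24.4% higher and 24.8% lower in granulocytes, are the background for these counts and for those of each list. The response differed between the cell types for 29 of 53, where 24.0% of all genes tested for a difference were called. The lists were drawn up with earlier results of these data known. These counts, medians and adjusted p-values are therefore descriptions, and no excess over the background is read as a result about the pathways. Some genes of the small counts below were named after their values were seen.

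IL27RA, the ligand-specific chain of the IL-27 receptor, had the largest change among the receptor chains tested. It increased in promyelocytes from 16.4 CPM (SD 0.909, n = 3) to 35.2 CPM (SD 2.17), a log2 fold change of 1.10 (edgeR adjusted p = 2.24e-09). In granulocytes IL27RA increased from 7.05 CPM (SD 1.09) to 72.4 CPM (SD 0.440), a log2 fold change of 3.35 (edgeR adjusted p = 5.3e-30). The difference of 2.29 (SE 0.117) between the cell types was itself past the threshold (edgeR adjusted p = 4.83e-14). The granulocyte level was thus lower than the promyelocyte level with vehicle and higher with TNF-α. Per exon length IL27RA stood at 0.443 to 0.602 of the IL6ST level in vehicle and 2.75 to 3.11 in TNF-α granulocytes, so both chains of the IL-27 receptor were present while IL27 itself was at 0.

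The receptor chains of IL-12 and IL-23 changed little. IL12RB1, which serves both cytokines, had 0, 0 and 0 counts in vehicle and 1, 1 and 0 counts in TNF-α promyelocytes. In granulocytes IL12RB1 stood at 7.32 CPM (SD 0.289) with vehicle and 6.51 CPM (SD 0.839) with TNF-α, which was not called (edgeR adjusted p = 0.245). With length and GC trends removed, IL12RB1 was called lower there, at -0.30 on the log2 scale. IL12RB2, its partner in the IL-12 receptor, decreased in granulocytes by 0.34 on the log2 scale (edgeR adjusted p = 0.000165) and was not called in promyelocytes. IL23R, its partner in the IL-23 receptor, decreased in granulocytes by 0.15 on the log2 scale (edgeR adjusted p = 0.0305), a call lost in 9 of 12 alternatives. Among these, its log2 fold change was -0.14 without vehicle replicate 1, without vehicle replicate 2 or without TNF-α replicate 1, and -0.12 without TNF-α replicate 2. In level IL23R was the most abundant of the 4 chains in vehicle cells, at 69.6 TPM (SD 4.05) in promyelocytes and 51.2 TPM (SD 1.86) in granulocytes.

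Of the other receptor chains of IL-6 type cytokines, LIFR, OSMR and CNTFR were at or near 0. LIFR, the LIF receptor, had 0 counts in all 12 libraries, OSMR, the oncostatin M receptor, had 1 count in all of them together, and CNTFR had 3. IL31RA had 3 counts over each promyelocyte group and fell in granulocytes from 134 to 30 counts over 3 libraries, a log2 fold change of -1.91 (edgeR adjusted p = 1.08e-05). IL11RA stood at 2.91 and 2.81 CPM in vehicle and TNF-α promyelocytes and at 7.16 and 6.27 CPM in granulocytes. It was called in neither cell type, but was called lower in granulocytes in 1 of 12 alternatives. Of its exon bases, 17.4% are shared with same-strand genes, GALT among them, and reads there are not counted.

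Among the other ligands, CLCF1, a ligand of the CNTF receptor, increased in granulocytes from 0.825 CPM (SD 0.0862) to 2.03 CPM (SD 0.290). Its log2 fold change was 1.29 (edgeR adjusted p = 0.000123), against 0.31 in promyelocytes, which was not called and was -0.001 without TNF-α replicate 3, which held 50 of the 100 TNF-α counts. The difference between the cell types was not past the threshold (edgeR adjusted p = 0.0726). CNTF was not called in either cell type, and 38.6% of its exon bases are shared with a readthrough gene on the same strand. CTF1 was not called in granulocytes, at -0.94 with all libraries, where it was -0.55 without TNF-α replicate 2 and, past the threshold, -1.59 without TNF-α replicate 3. IL31 had 0 counts throughout, and IL11 had at most 3 counts over any group.

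Of 9 JAK and STAT genes, 8 were tested in promyelocytes and 5 increased, JAK1, JAK2, TYK2 and STAT5A among them. In granulocytes 7 of 9 increased, 1 (STAT6) decreased and JAK2 was not called. The list medians were 0.34 and 0.22. STAT5A increased by 1.13 on the log2 scale in promyelocytes (edgeR adjusted p = 2.16e-08) and by 2.65 in granulocytes (edgeR adjusted p = 6.75e-29). STAT4, the main transducer of IL-12 signals, had 11 and 12 counts over the promyelocyte groups and increased in granulocytes by 2.16 (edgeR adjusted p = 1.87e-15). JAK2, a kinase of the IL-12 and IL-23 receptors, increased in promyelocytes by 0.94 (edgeR adjusted p = 4.15e-09) and stood at 0.08 in granulocytes.

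Of 10 inhibitors of this signalling, 3 increased and 1 decreased in each cell type, with medians of 0.11 and 0.05, and in granulocytes these counts stood close to or below the 24.4% and 24.8% of all tested genes. PTPN1 and PTPN2 increased in both, together with SOCS1 in promyelocytes and SOCS3 in granulocytes. SOCS1, a feedback inhibitor of JAK kinases, had 66 counts over the vehicle and 468 over the TNF-α promyelocyte libraries, a log2 fold change of 2.83 (edgeR adjusted p = 1.92e-08). In granulocytes SOCS1 had 243 and 201 counts and a log2 fold change of -0.04 (edgeR adjusted p = 0.888). PTPN6, a phosphatase of blood cells, decreased in granulocytes by 0.68 (edgeR adjusted p = 1.94e-14). In promyelocytes PTPN6 decreased by 0.20 (edgeR adjusted p = 0.0307), a call lost in 6 of 12 alternatives. It stood at -0.16 without vehicle replicate 1, -0.20 without vehicle replicate 2, -0.18 without TNF-α replicate 1 and -0.17 without TNF-α replicate 2. Of the proteases that shed IL6R, ADAM17 increased by 0.34 in promyelocytes (edgeR adjusted p = 0.000498) and by 1.39 in granulocytes (edgeR adjusted p = 8.97e-24). ADAM10 was not called in promyelocytes and was called lower in granulocytes by 0.11 (edgeR adjusted p = 0.0465). That call lies close to the threshold of 0.05, and its stability under the alternatives is not reported here.

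Of 10 early targets of IL6ST and STAT3 signalling, 3 increased in promyelocytes (BCL3, JUNB and PIM1) and 2 decreased (MYC and BCL6). In granulocytes 5 increased (BCL3, JUNB, MCL1, CEBPD and BCL6) and 2 decreased (PIM1 and CEBPB), and the medians were 0.13 and 0.09. The 2 of 10 that decreased in granulocytes stood near the 24.8% of all tested genes. BCL3, an IκB family protein, increased by 3.52 and 5.09 on the log2 scale (edgeR adjusted p = 1.16e-15 and 1.17e-36). JUNB, a subunit of AP-1, increased by 0.98 and 1.95 (edgeR adjusted p = 3.97e-07 and 2.71e-24). BCL6, a transcriptional repressor, changed in opposite directions, with 388 and 172 counts over the promyelocyte groups and 223 and 511 over the granulocyte groups. Its log2 fold changes were -1.13 and 1.44 (edgeR adjusted p = 0.000311 and 3.49e-10). MYC decreased by 1.21 in promyelocytes (edgeR adjusted p = 1.37e-11) and stood at -0.07 in granulocytes, which was not called.

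Of 13 regulators of the transcription or mRNA decay of these cytokines, 7 increased and 1 (IRF5) decreased in promyelocytes, with a median log2 fold change of 0.75. In granulocytes 10 increased and 2 (IRF5 and ARID5A) decreased, with a median of 0.94. RELB, an NF-κB subunit, increased by 2.96 and 4.01 (edgeR adjusted p = 2.3e-16 and 1.07e-33). ZC3H12A, a ribonuclease known to degrade IL6 and IL12B transcripts, increased by 1.97 and 2.68 (edgeR adjusted p = 1.34e-12 and 5.45e-29). IRF8, a factor required for IL12B transcription in macrophages and dendritic cells, had 187 and 306 counts over the promyelocyte groups, an increase of 0.75 (edgeR adjusted p = 0.00871). In granulocytes IRF8 had 29 and 739 counts, an increase of 4.90 (edgeR adjusted p = 3.08e-21). ATF3 increased in granulocytes by 2.14 (edgeR adjusted p = 5.27e-10), and in promyelocytes it stood at 0.43 and was not called, but at 0.62 and called without TNF-α replicate 2.

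**Figure D5:**
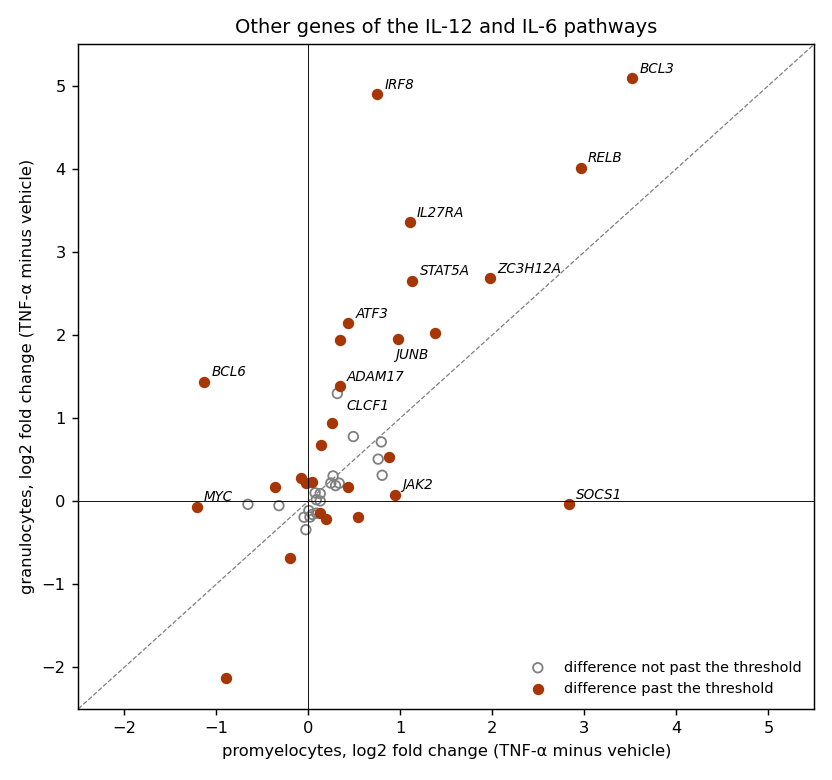
Log2 fold change (TNF-α minus vehicle) in promyelocytes (x axis) and granulocytes (y axis) of the 49 listed genes tested in both cell types, filled where the difference was past the threshold (28 genes), with a dashed line at equality. IRF8, IL27RA and STAT5A lie above the line and SOCS1 and JAK2 below it, while BCL6 lies at -1.13 in promyelocytes and 1.44 in granulocytes.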

How the data were processed

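Total RNA of HL-60/S4 cells was depleted of ribosomal RNA and sequenced as paired ends in 12 libraries. The authors aligned the reads to hg38 with STAR 2.5.3a and deposited raw counts of read pairs per gene from featureCounts 1.5.2 with GENCODE 27, counted by strand and without normalization. Read pairs on exons of more than 1 gene of the same strand are not counted by default. Libraries were grouped by their labels, and replicates were separate flasks, so p-values measure the spread between 3 flasks of 1 line within 1 experiment. Whether these flasks were cultured or differentiated apart before treatment is not stated. Library totals were 22829189 to 31895061, and 57577 of 58288 identifiers had a symbol.

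The cell types were fitted separately in edgeR 4.0.16 (R 4.3.3) by the quasi-likelihood test, with TMM normalization, filterByExpr (minimum count 10, minimum total 15), a prior count of 0.125 and Benjamini-Hochberg adjustment over all genes tested, with a threshold of 0.05. Standard errors came from the fold change and its F statistic. This makes them too small for genes with few counts in 1 group, such as EBI3 and IL12B. The difference between the responses was the interaction in 1 fit of 12 libraries with 4 groups. The fits were tested on simulated data. CPM used TMM library sizes, TPM the deposited gene lengths, and intervals of ratios were exact 95% binomial (Clopper-Pearson) intervals for counting error only. Promoters came from RefSeq (GRCh38.p14), and 7 of 7 windows equalled the genome sequence.

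The 10 genes and the gene lists were chosen with earlier results of these data known. All 10 were named. Of the lists, receptor chains and ligands were named, and of each other list up to 4 genes with the largest absolute log2 fold change among those called with one of at least 1 or with a response that differed between the cell types, and some listed genes are not reported here. Alternatives were DESeq2 size factors, DESeq2 1.42.0, no filter, a replicate block, 1 fit of 12 libraries, removal of length and GC trends, and leaving out each library.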

Additional observations from a re-analysis of the deposited data

Results flagged for a closer look

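The TNF-α response differed between promyelocytes and granulocytes, by edgeR's test of the interaction adjusted over all genes, for several named genes of the pathway lists. All values are the log2 fold change in granulocytes minus that in promyelocytes. IRF8 (4.19), BCL6 (2.61), IL27RA (2.29), STAT4 (2.05) and ATF3 (1.74) had the largest positive differences. BCL3 (1.61), STAT5A (1.56), MYC (1.19), RELB (1.09), ADAM17 (1.08), JUNB (1.01) and ZC3H12A (0.74) followed. SOCS1 (-2.83), JAK2 (-0.83) and PTPN6 (-0.45) had negative differences. The STAT4 difference rests on 11 and 12 counts over the promyelocyte groups. The cell types came from separate experiments, so a difference between cell types and one between experiments cannot be told apart.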

How the results depend on the processing

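Leaving out 1 library at a time gave promyelocyte log2 fold changes of EBI3 from 6.51 to 8.34, the highest without vehicle replicate 3, and granulocyte values from 8.24 to 8.69. With all 12 libraries in 1 fit, 7 listed genes decreased in promyelocytes in place of 4. With length and GC trends removed, IL6R was at -1.39 in granulocytes and IL6ST at 0.76 in promyelocytes. The other 129 values of the 6 genes fitted and 64 counts of listed genes stayed within their limits, and no called direction reversed. The limit was a fixed fold for a count and, for a gene, its own replicate SD on the log2 scale. That limit is loose for scattered genes, at 1.04 for EBI3 and 0.514 for IL23A in promyelocytes. Within it, the uncalled promyelocyte value of IL23A fell from 0.51 to 0.13 without TNF-α replicate 2. Among uncalled values, IL12RB2, IL23R, IL11RA and CLCF1 in promyelocytes and SOCS1 in granulocytes changed sign in at least 1 alternative. Of the named listed genes, 482 values kept their call, 15 lost it and 6 gained it. Over all genes, 1081 decreased in promyelocytes, but 653 without vehicle replicate 2 and 667 without TNF-α replicate 2.

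With the replicate block, EBI3 was at 7.11 and 8.48, 20 listed genes increased and 3 decreased in promyelocytes, 27 increased and 8 decreased in granulocytes, and 23 responses differed. IL23R in granulocytes (-0.15) and PTPN6 in promyelocytes (-0.20) lost their calls under the block. The numbers did not pair the libraries: deviations of same-numbered libraries correlated at -0.146 to -0.0435 in promyelocytes and -0.0674 to -0.0129 in granulocytes. Depth limits IL27, IL12A, IL6 and LIF, and the vehicle levels of EBI3 and IL12B.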
